A study of Felis catus with 15 samples.

Results

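Desmosomes are the rivets that hold neighbouring epithelial cells together, and the cornified envelope is the cross-linked protein shell that cells of a squamous epithelium build under their membrane. The genes described here are 10 that serve these structures: IVL, TGM1, PPL and EVPL of the envelope, SFN, an adaptor protein typical of stratified epithelium, and DSG2, DSG3, DSC2, PKP1 and PERP of the desmosome. They were taken by symbol from a list of 10 names, and all 10 of 10 were found among the 38995 genes of the count table. The list was selected on the levels of these genes in cultured and fresh tissue, since earlier results of the same libraries were known when it was drawn up. Differences of the cultures from fresh tissue are therefore given for these genes as values, without a test.

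RNA-seq was made from the epididymal corpus, the stretch of the duct between caput and cauda, in domestic cats (Felis catus). There are 3 groups of 5 libraries: fresh tissue (coded D0), explants in culture (coded D3), and explants cultured with extracellular vesicles (EVs) of the caput, the region upstream (coded D3EV). The series asks what caput vesicles do to the corpus transcriptome. The labels give no genotype, age, culture medium, vesicle dose or meaning of the codes. They do not say whether replicates came from separate animals either, so p-values measure only the spread between these samples. Libraries are named by group and label number, as in culture 3, and the cultures with vesicles as vesicles 1 to 5.

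A desmosome is built from cadherins of 2 families, desmogleins (DSG) and desmocollins (DSC), whose outer parts meet between cells. Inside, plakoglobin (JUP) and plakophilins (PKP) bind the cadherin tails and hand them to desmoplakin (DSP), which anchors keratin filaments. In the envelope, envoplakin and periplakin lay down a first scaffold near desmosomes, involucrin is added, and transglutaminases bond the proteins together. The epididymal duct is normally lined by tall principal cells over small basal cells and does not cornify. In these bulk libraries, more cells of a type and more RNA per cell cannot be told apart.

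Levels are in CPM, counts scaled to a common library size with the trimmed mean of M values, and are compared only within a gene because transcript lengths were not used. Library totals ran from 17308832 to 27420218 counts. No library duplicated another, as 0 pairs of columns were identical. Markers of the labelled tissue were present: the summed level of 6 principal cell genes was 17910 to 21865 CPM in fresh libraries. One library stood apart: in culture 3 the share of counts from 13 mitochondrial protein genes was 0.179%, against 6.23% to 7.48% in the other 4 cultures and 6.40% to 7.26% with vesicles. Its principal cell sum was 967 CPM, against 2148 to 3179 in the other cultures. Results that this library moves are given with and without it.

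Of the 10 genes, 5 had every culture library above every fresh library: IVL, SFN, DSG3, PKP1 and PERP. Over all genes tested, 20.2% were separated upward in the same way and 20.4% downward. With vesicles the same 5 and EVPL were separated from fresh tissue, against 25.3% of genes upward and 24.0% downward. The median log2 fold change of the 10 genes over fresh tissue was 1.64 in culture and 1.37 with vesicles, and that of all genes was 0.04 and 0.01. Across all genes, edgeR called 28.7% higher and 25.6% lower in culture, and 27.4% higher and 25.5% lower with vesicles (adjusted p under 0.05). Both comparisons use the same fresh libraries, and both are contrasts on which the genes were chosen.

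**Figure D1:**
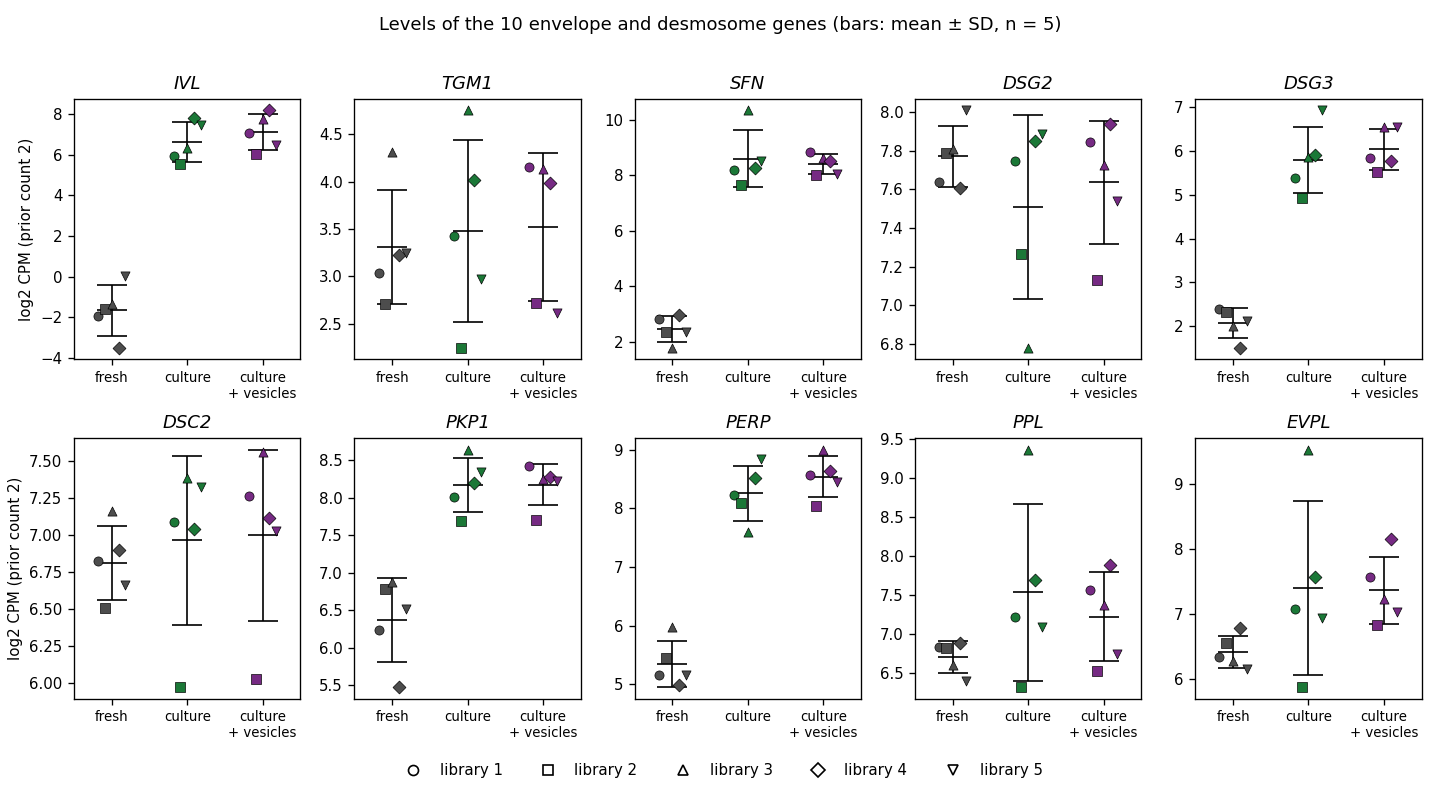
Log2 CPM (prior count 2) of the 10 genes in each library, in 3 groups of 5; symbols give the library number and bars the mean ± SD, and each panel has its own axis. IVL, SFN, DSG3, PKP1 and PERP have no overlap between fresh and either culture group, while TGM1, DSG2 and DSC2 overlap throughout.

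IVL encodes involucrin, a soluble envelope precursor rich in sites for cross-linking. IVL was almost silent in fresh tissue, with 0.18, 0.24, 0.31, 0 and 0.93 CPM in fresh 1 to 5, from 35 counts in all. In culture 1 to 5 it stood at 60.2, 47.0, 80.5, 219 and 177 CPM. With vesicles the values were 132, 65.5, 216, 287 and 88.4 CPM. The lowest cultured library was thus far above the highest fresh one, and the fold is imprecise because the fresh level rests on so few counts. The log2 fold change was 8.45 ± 0.76 (edgeR, SE) in culture and 8.89 ± 0.77 with vesicles. Without fresh 5, which held 18 of the 35 fresh counts, the culture value was 9.22 and the vesicle value 9.65.

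TGM1 encodes the membrane-anchored transglutaminase that bonds involucrin and other precursors into the envelope. Its fresh levels were 8.12, 6.46, 19.8, 9.29 and 9.38 CPM, its culture levels 10.7, 4.66, 26.8, 16.1 and 7.75 CPM, and those with vesicles 17.7, 6.51, 17.4, 15.7 and 6.03 CPM. All 3 groups overlapped, and within each group the libraries differed more than the group means did. The log2 fold change was 0.32 ± 0.46 in culture, -0.10 without culture 3, and 0.26 ± 0.46 with vesicles. The cross-linker did not show the separation seen for its substrate IVL.

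PPL (periplakin) and EVPL (envoplakin) encode plakins, scaffold proteins that bind each other and link the envelope to keratin filaments and desmosomes. PPL was at 114, 113, 96.8, 118 and 83.8 CPM in fresh 1 to 5, and at 148, 79.9, 660.1, 206 and 136 CPM in culture. EVPL was at 80.2, 93.8, 76.8, 109 and 70.5 CPM in fresh tissue, and at 134, 58.6, 737, 189.7 and 122 CPM in culture. In both genes culture 3 was the highest library by far and culture 2 lay below every fresh library. With vesicles PPL read 189.8, 92.3, 166, 237 and 107 CPM and EVPL 189.9, 113, 149.6, 282 and 130.2 CPM, where only EVPL cleared every fresh library.

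The size of the plakin difference in plain culture rested on culture 3. For PPL the log2 fold change over fresh tissue was 1.23 ± 0.45 with all 5 cultures and 0.45 ± 0.28 without culture 3. For EVPL it was 1.53 ± 0.52 and 0.56 ± 0.30. With limma-voom and weights for each library, all 5 cultures gave 0.52 for PPL and 0.65 for EVPL. With vesicles PPL had 0.59 ± 0.45 and EVPL 1.01 ± 0.51, nearer to the culture values without culture 3.

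SFN encodes stratifin, which binds phosphorylated partners and is made mainly in stratified epithelia. SFN read 6.98, 4.94, 3.35, 7.62 and 4.95 CPM in fresh 1 to 5. In culture the readings were 292, 200.01, 1302, 310.1 and 365 CPM, and the vesicle libraries had 459, 258, 397, 366 and 262 CPM. All 10 cultured libraries lay above all fresh ones, with culture 3 standing well over the other 4 cultures. The log2 fold change was 6.47 ± 0.53 in culture, 5.72 ± 0.28 without culture 3 (5.83 with limma-voom on all 5), and 5.97 ± 0.52 with vesicles.

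**Figure D2:**
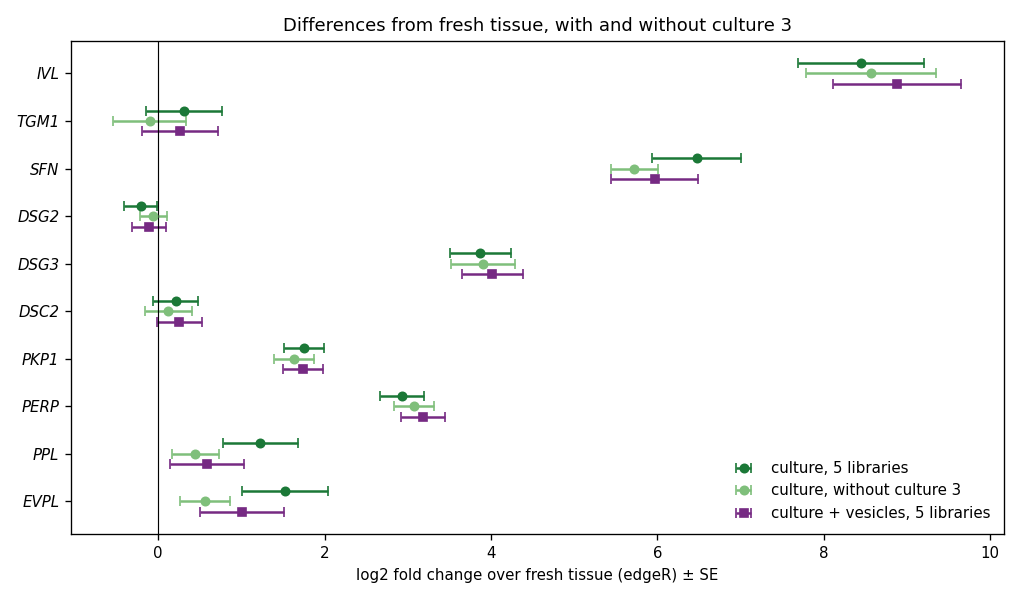
Log2 fold change over fresh tissue (edgeR, ± SE) of each gene in culture with 5 libraries, in culture without culture 3, and in culture with vesicles. PPL and EVPL drop from 1.23 and 1.53 to 0.45 and 0.56 without culture 3, while IVL, DSG3 and PERP barely move.

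Among the cadherins, the desmoglein of stratified layers and that of simple epithelium went separate ways. DSG2 is the desmoglein found in nearly all epithelia, and its levels were 199, 221, 224, 195 and 258 CPM in fresh tissue, 215, 154, 109.9, 231 and 237 CPM in culture, and 230.3, 140.3, 211, 245 and 186 CPM with vesicles. The groups overlapped, and culture 3 was the lowest of all 15 libraries. The log2 fold change was -0.21 ± 0.20 in culture, -0.06 without culture 3 and -0.11 ± 0.20 with vesicles.

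DSG3 is the desmoglein of the deep layers of stratified epithelium and the target of antibodies in pemphigus vulgaris. Its fresh levels were 5.18, 4.90, 3.92, 2.77 and 4.28 CPM. Culture libraries had 41.5, 30.1, 57.6, 59.5 and 121 CPM, and vesicle libraries 56.7, 45.7, 92.6, 54.3 and 92.6 CPM. The groups did not overlap, and the log2 fold change was 3.87 ± 0.36 in culture and 4.02 ± 0.36 with vesicles. In the RefSeq gene table the span of DSG3 overlaps that of DSC1, which had 132 to 831 counts per library. No source used here gives the strand setting of the counting, so reads of both genes are uncertain where they overlap. DSC1 moved the other way and fell by 1.59 ± 0.22 in culture (edgeR adjusted p = 2.57e-05).

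DSC2, the widespread desmocollin, read 113, 90.5, 143, 119 and 101 CPM in fresh tissue. It read 136, 62.7, 167, 131 and 159.7 CPM in culture, and 153, 65.2, 188, 138 and 129.8 CPM with vesicles. The number 2 library was the lowest in each of the 3 groups, and the groups overlapped. Log2 fold changes were 0.21 ± 0.27 in culture and 0.25 ± 0.27 with vesicles. Its relative DSC3, a desmocollin of basal and stratified layers and not one of the 10 genes, rose by 2.77 ± 0.37 in culture (edgeR adjusted p = 1.93e-05). DSC3 lay within 4.46 to 4.80 CPM in fresh tissue and spread from 11.2 to 51.8 CPM in culture.

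The shift within each pair can be read as the share of counts from the gene typical of stratified epithelium, which does not depend on library scaling. DSG3 supplied 1.89% ± 0.45 (SD, n = 5) of the counts of DSG2 and DSG3 together in fresh tissue, 24.2% ± 9.15 in culture and 25.2% ± 6.57 with vesicles. Its lowest share in culture, 16.2%, was far above its highest fresh share, 2.53%. DSC3 supplied 4.02% ± 0.59 of the counts of DSC2 and DSC3 in fresh tissue, 18.7% ± 5.57 in culture and 18.05% ± 2.57 with vesicles. Of the plakophilins, PKP1 already supplied 77.1% ± 6.53 of the counts of PKP1 and PKP2 in fresh tissue, and 92.3% ± 2.09 and 91.9% ± 0.60 in the cultures. These shares are set by transcript length as well as by level, so only their change between groups is compared. Each share holds a gene of the 10 (DSG2 and DSG3, DSC2, or PKP1), so all of them are a description too.

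**Figure D3:**
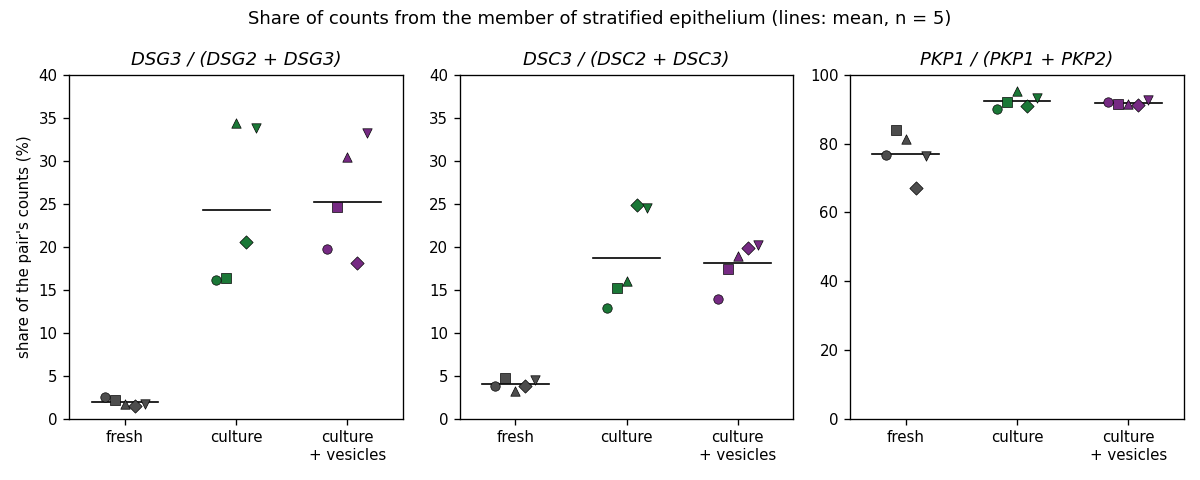
Share of the counts of each pair (in percent) that came from DSG3, DSC3 and PKP1, by library, with lines at the mean of 5; the plakophilin panel has a longer axis. The DSG3 share goes from 1.89% in fresh tissue to 24.2% and 25.2% in the cultures.

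PKP1 encodes plakophilin 1, which strengthens and clusters desmosomes in stratified epithelium. Fresh libraries 1 to 5 had 75.1, 110.1, 117, 44.6 and 91.4 CPM. In culture the values were 257, 206, 399, 292 and 325 CPM, and with vesicles 344, 208, 304, 310.0 and 299 CPM. Fresh 4 was the low library of its group, and no cultured library reached down to the fresh range. The log2 fold change was 1.75 ± 0.24 in culture and 1.74 ± 0.24 with vesicles.

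PERP encodes a small membrane protein that stabilises desmosomes. It stood at 35.7, 43.4, 62.8, 31.5 and 35.8 CPM in fresh tissue. In culture it was at 301, 274, 193, 368 and 460.1 CPM, and with vesicles at 381, 262, 513, 399.6 and 348 CPM. Culture 3 was the lowest of the cultures, the opposite of its place for PPL, EVPL and SFN, yet still above all fresh libraries. Log2 fold changes were 2.93 ± 0.26 in culture and 3.18 ± 0.26 with vesicles.

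Set against the median of the other 4 cultures, culture 3 was 5.74 times as high for EVPL, 4.64 for PPL, 4.32 for SFN and 2.91 for TGM1. The desmosome genes among the 10 had lower ratios: 1.45 for PKP1, 1.25 for DSC2, 1.14 for DSG3, 0.575 for PERP and 0.493 for DSG2. The envelope gene IVL had 0.677 and the desmosome gene PKP3, outside the 10, had 2.47, so the split did not follow the structures throughout. Culture 3 was the highest culture for 6 of the 10 genes, while 32.5% of all genes tested peaked there. KRT16, a keratin of activated suprabasal cells named here after its values were seen, stood at 1034 CPM in culture 3 and at 154 to 249 CPM in the other cultures. Whether the low mitochondrial share of this library has a part in these levels was not tested.

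The number 2 libraries formed a low end among both cultures. Culture 2 was the lowest culture for 8 of the 10 genes and vesicles 2 the lowest vesicle library for 9, where 19.2% and 24.0% of all genes tested had their lowest value. Relative to the median of the other 4 libraries, the 10 genes stood at 0.348 to 0.819 in culture 2 and at 0.376 to 0.676 in vesicles 2. Fresh 2 did not share this, with 0.692 to 1.32. The same libraries had the highest summed levels of 5 fibroblast genes, 12038 CPM in culture 2 and 8233 CPM in vesicles 2, against 1156 to 7197 and 865 to 2804 CPM in the others. Their 4 smooth muscle genes summed to 2262 and 2490 CPM, also the highest. EPCAM, a general epithelial gene chosen after seeing the data, read 402 CPM in culture 2 and 289 CPM in vesicles 2. When counts were divided by those of EPCAM, culture 2 was lowest for 7 of the 10 genes and vesicles 2 for 1. Among the cultures without vesicles, EPCAM was lowest in culture 3, at 357 CPM, and that library was the highest culture for 6 of the 10 genes. Fresh 2 too had the highest fibroblast and smooth muscle sums of its group, 1976 and 1286 CPM. The part of the mix of cells in the low values was not tested.

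The vesicle question rests on vesicles against plain culture, a contrast that shares its culture libraries with one on which the genes were selected. Of the 10 genes 0 were called, and 0 of all 18038 genes tested were called (edgeR quasi-likelihood test, 2-sided, adjusted p under 0.05), which is 0% of them. An unadjusted p under 0.05 was found for 183 genes, none of them among the 10, whose unadjusted p ran from 0.174 to 0.958. DESeq2 and limma-voom also called 0 genes. Every one of the 10 genes overlapped between the 2 cultures, where 0.0499% of all genes were separated upward and 0.0333% downward.

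The intervals show what the fit by group, which left out the library number, could and could not see. For PKP1 the log2 difference was -0.01 (95% interval -0.53 to 0.50), for DSG2 0.10 (-0.34 to 0.54), for DSC2 0.04 (-0.55 to 0.63) and for PERP 0.25 (-0.27 to 0.78). These 4 intervals leave room for differences below 2-fold in either direction. DSG3 had 0.14 (-0.55 to 0.84), also within 2-fold. The other intervals were wider: IVL had 0.43 (-0.68 to 1.55), TGM1 -0.06 (-1.05 to 0.93), SFN -0.50 (-1.41 to 0.41), PPL -0.63 (-1.61 to 0.34) and EVPL -0.52 (-1.62 to 0.58). Each of these 5 intervals includes a 2-fold difference in 1 direction, which this fit therefore does not exclude. With the library number added to the model the SE was smaller for each gene but PERP (0.26 against 0.24). It was 0.25 against 0.46 for TGM1 and 0.16 against 0.27 for DSC2. No intervals were taken from that model.

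Of single libraries left out, only culture 3 turned the sign for EVPL, PPL, SFN and DSG2. TGM1 and PKP1 changed sign without other libraries too, such as vesicles 5 for TGM1 (0.098) and vesicles 2 for PKP1 (0.074). Vesicles 3 minus culture 3 was -2.30 log2 units for EVPL, -1.99 for PPL and -1.71 for SFN, but 1.42 for IVL, 1.41 for PERP and 0.94 for DSG2. In the other 4 numbers EVPL was higher with vesicles each time, by 0.09 to 0.94. Without culture 3 the fitted difference turned to 0.45 ± 0.31 for EVPL, 0.15 ± 0.28 for PPL, 0.26 ± 0.24 for SFN and 0.37 ± 0.44 for TGM1, with adjusted p = 1 for each (edgeR). It turned to -0.05 ± 0.16 for DSG2 and 0.12 ± 0.24 for PKP1, also with adjusted p = 1.

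**Figure D4:**
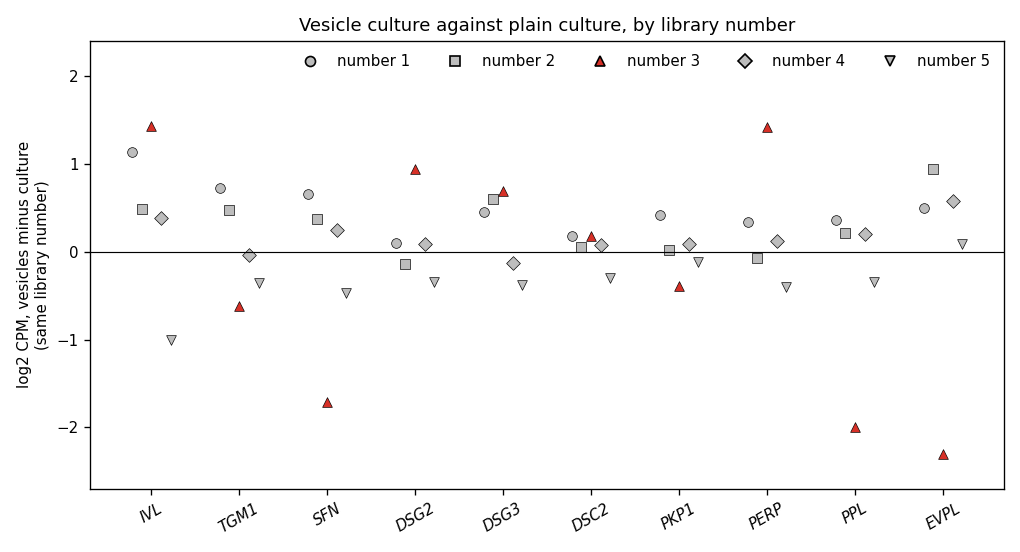
Log2 CPM of each vesicle library minus that of the culture library with the same number, for the 10 genes; red triangles mark number 3. Number 3 is the lowest point for EVPL, PPL and SFN (-2.30, -1.99 and -1.71) and the highest for IVL, PERP, DSG2 and DSG3.

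Other genes of the same structures were read from 6 lists, and here culture against fresh tissue was tested over all genes, of which 28.7% were called higher and 25.6% lower. These lists too were drawn up with earlier results of this contrast known, so their counts are a description and no independent evidence of a direction. Of the 9 other desmosome genes 7 could be tested: 4 rose, 1 fell and 2 were not called (median log2 fold change 1.21, against 0.04 for all genes). JUP, the plakoglobin that joins cadherin tails to the plaque, rose by 2.15 ± 0.24 (edgeR adjusted p = 2.54e-06). DSP, the desmoplakin that holds keratin filaments, rose by 1.21 ± 0.23 (adjusted p = 0.000438), and PKP3 by 1.63 ± 0.27 (adjusted p = 0.000122). DSC3 was the fourth and DSC1 the one that fell. PKP2, the plakophilin of simple epithelium and heart, had -0.02 ± 0.17 (adjusted p = 0.917), and CDSN, of the outermost skin layers, -1.22 ± 1.42 (adjusted p = 0.486; 2.19 without fresh 3). DSG1 and DSG4, desmogleins of upper skin layers and hair, had only 9 and 22 counts over all 15 libraries.

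In the gene table the cadherins follow in the order DSC3, DSC2, DSC1, DSG1, DSG4, DSG3 and DSG2. The spans of DSC1 and DSG3 overlap, so the limit on reads given for DSG3 holds for DSC1 too. In culture, DSC3 and DSG3 near either end stood higher, DSC1 between them fell, and DSC2 and DSG2 next to them overlapped with fresh tissue. Neighbouring genes of this cluster thus did not share a direction.

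Of 32 names in the envelope list 20 were matched, 11 of these had 0 or few counts and 9 were tested, of which 4 rose, 2 fell and 3 were not called (median 0.50). The ones that rose include S100A10 by 2.58 ± 0.18 (adjusted p = 3.27e-08), ANXA1 by 2.35 ± 0.16 (adjusted p = 3.38e-08) and S100A11 by 1.82 ± 0.32 (adjusted p = 0.000215, edgeR), membrane and calcium-binding proteins that many cells make besides squamous ones. S100A11 did not stand higher in every culture: it was at 118 CPM in culture 3, below the 131 to 159 CPM of fresh tissue, and at 517 to 694 CPM in the other 4. Without culture 3 its value was 2.09. The fourth was TGM3, a transglutaminase of hair and upper epidermis. TGM3 had 0 counts in all fresh libraries, 193 counts in culture and 156 with vesicles, at least 62.4-fold and 46.8-fold higher against 3 counts over the fresh group. Its culture level was low all the same, 0.457 to 3.24 CPM.

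LELP1 (-4.35 ± 1.23, adjusted p = 0.00759) and the protease inhibitor CSTA (-1.69 ± 0.66, adjusted p = 0.0420) were the 2 that fell, named after their values were seen. CSTA lost its call without fresh 1 (-0.90, adjusted p = 0.222), fresh 3, fresh 4 or any 1 of the cultures (adjusted p up to 0.0841, reached without culture 3). The LELP1 value was -3.60 without fresh 5 and -8.61 without culture 1, and limma-voom called neither gene (adjusted p = 0.0618 for LELP1 and 0.412 for CSTA). SCEL, sciellin, had -0.34 ± 0.42 (adjusted p = 0.510). LORICRIN, HRNR, RPTN, CRNN, TCHHL1 and SPRR4, late envelope proteins and their relatives, had 0 counts in all 15 libraries. A count of 0 of 336578260 allows up to 0.00891 CPM, from counting error alone. TGM5, KRTDAP, CRCT1, TCHH and CNFN had 9 to 20 counts in all. FLG and the remaining SPRR genes were not matched by symbol and were not analysed here.

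Enzymes of the skin lipid barrier and of shedding had 8 of 15 genes tested, with 4 higher and 0 lower (median 1.78). CERS3, which makes the very long ceramides of the barrier, rose by 6.96 ± 0.56 (edgeR adjusted p = 1.16e-07) and had at most 0.464 CPM in a fresh library and 10.5 to 51.5 CPM in culture. ELOVL4, which lengthens their fatty acids, rose by 3.59 ± 0.90 (adjusted p = 0.00327; 4.88 without fresh 5). ALOXE3, a lipoxygenase of the barrier, rose by 2.96 ± 0.97 (adjusted p = 0.0176) and CYP4F22, a fatty acid hydroxylase, by 2.05 ± 0.69 (adjusted p = 0.0200; 2.92 without fresh 4). These 3 were at 0.175 to 0.399 CPM on average in fresh tissue. CASP14, a protease of cornifying cells, had 0 counts in all libraries.

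Of 22 regulators of squamous differentiation 12 rose, 2 fell and 8 were not called (median 1.04). CEBPB rose by 2.82 ± 0.32 (edgeR adjusted p = 3.22e-06), NOTCH1 by 2.59 ± 0.35 (adjusted p = 1.97e-05) and ELF3 by 2.66 ± 0.37 (adjusted p = 2.47e-05). TP63, the master factor of basal and stratified epithelium, rose by 1.32 ± 0.23 (adjusted p = 0.000224). In culture 3 TP63 was at 76.4 CPM, near the fresh maximum of 73.3 CPM, and the other cultures had 140 to 220 CPM. With single libraries left out its value ran from 1.17 to 1.51. OVOL2, a repressor that keeps epithelial identity, fell by 1.69 ± 0.19 (adjusted p = 3.48e-06). GRHL3, a factor of barrier formation, had 0.50 ± 0.28 (adjusted p = 0.149, and 0.0421 without culture 2). KLF4, a factor of the upper epidermis, fell by 1.30 ± 0.46 (adjusted p = 0.0277), but the call rested on few libraries: without fresh 4 the value was -0.40 (adjusted p = 0.203), and without culture 1, culture 2 or culture 3 the adjusted p was 0.0562, 0.0597 or 0.0559.

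Adherens junctions, the other cell contacts built on cadherins, had 7 of 11 genes higher and 0 lower in culture (median 0.89). CDH3, the cadherin of basal epithelial cells, rose by 3.79 ± 0.26 (edgeR adjusted p = 3.38e-08), and NECTIN1 by 3.20 ± 0.28 (adjusted p = 2.96e-07). CDH1, E-cadherin, rose by 1.28 ± 0.23 (adjusted p = 0.000295), NECTIN2 by 1.56 ± 0.25 (adjusted p = 0.000105) and CTNNA1, alpha-catenin, by 0.89 ± 0.15 (adjusted p = 0.000137). Family relatives of the 10 genes had 12 of 17 tested genes higher and 1 lower (median 0.85). Among relatives of SFN, YWHAG rose by 1.67 ± 0.16 (adjusted p = 5.77e-07), YWHAE by 0.80 ± 0.11 (adjusted p = 1.55e-05) and YWHAZ by 0.58 ± 0.16 (adjusted p = 0.00528), all well under the 6.47 of SFN. In culture 3 YWHAZ was at 241 CPM, within its fresh range of 238 to 284 CPM, and the other cultures had 406 to 507 CPM. With single libraries left out its value ran from 0.48 to 0.73. TGM2, the transglutaminase of many tissues, rose by 1.70 ± 0.28 (adjusted p = 0.000129). The membrane proteins EMP2 and EMP1 rose by 1.63 ± 0.16 (adjusted p = 9.38e-07) and 2.89 ± 0.39 (adjusted p = 1.93e-05). DST, the plakin that fell, was named after its value was seen (-1.08 ± 0.24, adjusted p = 0.00163).

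None of the genes of the 6 lists was called between vesicles and plain culture (edgeR adjusted p), as no gene was. Without culture 3 the counts of risers in culture were 4, 4, 4, 12, 6 and 13 for the desmosome, envelope, barrier, regulator, adherens and relative lists in turn. Over all 6 lists 49 genes were called in culture against fresh tissue, and 46 to 53 when any 1 library was left out.

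Markers of squamous layers and of other cell types were read in the same libraries. In culture against fresh tissue, 28.7% of all genes tested were called higher and 25.6% lower (edgeR adjusted p under 0.05). Of 6 matched markers of the skin surface, KRT1 and LORICRIN had 0 counts and DSG1 at most 7 in any group. Of the 3 that could be tested 2 rose in culture and 0 fell. KRT2 had 0 fresh counts, 55 in culture and 72 with vesicles, at least 17.8-fold and 21.6-fold higher against 3 counts over the fresh group (edgeR adjusted p = 0.00631 in culture). KRT10 rose by 0.63 ± 0.22 (adjusted p = 0.0234), a call lost without fresh 4 or culture 2 (adjusted p = 0.0560 and 0.0532), in a fit of the 2 groups alone and under upper-quartile scaling. The summed level of the 6 was 1.33 to 4.23 CPM in fresh libraries, 2.84 to 3.66 CPM in cultures and 3.13 to 4.37 CPM with vesicles. Suprabasal squamous cells outside the skin had 5 matched markers, of which 4 were tested and 3 rose in culture. These 5 summed to 3.65 to 7.37 CPM in fresh tissue, 191 to 315 CPM in 4 cultures and 1164 CPM in culture 3. With vesicles the sum was 170 to 444 CPM. KRT16 alone made most of this sum in every library, with 3.37 to 6.75 CPM in fresh tissue and 1034 CPM in culture 3. The sum therefore mainly follows 1 keratin. KRT4, another of the 5, was at 0 counts in every fresh library. Its level in culture was at least 744-fold higher, though its call was lost with limma-voom (adjusted p = 0.0707), and its levels spread from 3.52 to 45.0 CPM. CRNN, from the same list, had 0 counts throughout. The 5 markers of simple epithelium summed to 1380 to 1783 CPM in fresh libraries, 2005 to 3278 CPM in 4 cultures, 7547 CPM in culture 3 and 1944 to 4087 CPM with vesicles. Of these 5 markers 3 rose in culture and 0 fell, among them KRT7 by 4.15 ± 0.45 (edgeR adjusted p = 2.34e-06) and KRT19 by 2.67 ± 0.39 (adjusted p = 4.16e-05). Fibroblast markers summed to 500 to 1976 CPM in fresh tissue and 1156 to 12038 CPM in culture. Only 2 of these 5 markers rose in the test, COL1A1 and COL1A2, and 3 were not called. COL1A1 (161 CPM in fresh tissue, 2083 CPM in culture) and COL1A2 (254 and 1665 CPM) made most of the mean culture sum. Basal cell markers summed to 400 to 748 CPM in fresh tissue and 1998 to 5938 CPM in culture, highest in culture 3. All 5 matched basal markers were tested and rose in culture. The fresh and culture ranges of the summed levels were 12.5 to 29.1 and 38.3 to 75.0 CPM for urothelial markers, and 2.42 to 7.24 and 21.0 to 47.0 CPM for mesothelial ones. In the test 2 of 4 urothelial and 2 of 2 mesothelial markers rose, and 0 fell. UPK1B went from 6.30 CPM in fresh tissue to 45.6 CPM in culture on average. The urothelial markers UPK1A (-1.16) and UPK3A (-0.49) were not called. Endothelial markers summed to 236 to 307 CPM in fresh tissue and 388 to 601 CPM in culture, leukocyte markers to 19.8 to 36.3 and 12.96 to 31.4 CPM, and neutrophil markers to 4.90 to 8.89 and 7.70 to 9.97 CPM. Endothelial markers had 3 of 4 tested genes higher in culture and 0 lower. Leukocyte markers had 1 higher and 1 lower of 4 tested, and neutrophil markers 2 higher and 1 lower of 3. The leukocyte and neutrophil sums thus join genes called in opposite directions. All 6 principal cell markers fell in culture, where 25.6% of all genes tested were called lower (edgeR adjusted p under 0.05). Their summed level was 17910 to 21865 CPM in fresh tissue, 967 to 3179 CPM in culture and 2087 to 3415 CPM with vesicles. On average NPC2 (10289 CPM) and CRISP1 (8401 CPM) made most of the fresh sum, and CRISP1 (1900 CPM) most of the culture sum. CRISP1 fell least of the 6, by 2.14 ± 0.31. The part of these cell types in the levels of the 10 genes was not tested.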

How the data were processed

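The authors deposited raw counts per gene for 38995 genes in 15 libraries. Per the labels' protocols, a Qiagen kit gave the RNA and TruSeq Stranded mRNA the libraries. The submitters' processing notes list StringTie 2.1.3b, HISAT2 2.1.0, Trimmomatic 0.38 and Bowtie2 2.3.4.1 without roles. No source used here gives the build, annotation, counter or strand setting. All 38995 gene identifiers matched a RefSeq table of assembly F.catus_Fca126_mat1.0, used for names, neighbours and overlaps.

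The members and lists were chosen with earlier results of these data known. edgeR 4.0.16 (R 4.3.3) filtered low counts (filterByExpr, minimum count 10, minimum total 15), which left 18038 genes with all 10 members and removed 20957. Counts were scaled by TMM and fitted with glmQLFit and glmQLFTest, with group as the term and 12 residual degrees of freedom. P-values were adjusted by Benjamini-Hochberg over all genes and called under 0.05. SE is the absolute log2 fold change over the square root of F. Scripts were tested on simulated data. Beyond the 10 members, each list gave up to 4 called genes of smallest adjusted p, plus 15 fixed names, of which FLG was not matched. Genes outside this rule (EPCAM, KRT16, CDSN, DSG4, LELP1, CSTA, DST, KRT2, KRT7, KRT10, KRT19, UPK1A, UPK1B, UPK3A, COL1A1, COL1A2, NPC2, CRISP1, and those with few or 0 counts) were named after their values were seen.

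Same-numbered libraries deviated together in every pair of culture with vesicles (r across genes 0.181 to 0.602) and of fresh tissue with vesicles (0.242 to 0.362). Pairs of fresh tissue with culture did so too (0.198 to 0.344), except number 3 (0.0326). Alternatives were DESeq2 1.42.0, limma-voom 3.58.1 with sample weights, 2 scalings, 2 filters, a replicate block, 2-group fits and leaving out each library. Levels per length, protein features and promoter motifs were not analysed here.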

Additional observations from a re-analysis of the deposited data

Results flagged for a closer look

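With 5 libraries a group, a library was noted when its gap to the nearest other exceeded 0.71 of the group's range. Of 33 groups tested 3 were noted, and chance gives about 1 in 20. DSC2 in culture 2 lay low, with a gap of 0.755 of the range on the log2 scale. PKP1 in vesicles 2 lay low by 0.727 of the range. The mitochondrial share of counts was low in culture 3 by 0.829 of the range.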

How the results depend on the processing

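For vesicles against culture, 0 of the 10 genes were called under every alternative run. With limma-voom the log2 difference changed sign for TGM1 (0.33), SFN (0.24), DSG2 (-0.049), PKP1 (0.15), PPL (0.032) and EVPL (0.28). Leaving out 1 library at a time, the values ranged from -0.27 to 0.37 for TGM1, -0.70 to 0.26 for SFN, -0.046 to 0.20 for DSG2, -0.031 to 0.52 for DSG3, -0.14 to 0.20 for DSC2, -0.12 to 0.12 for PKP1, -0.86 to 0.15 for PPL and -0.80 to 0.45 for EVPL. The causes were not tested. PKP2 in culture against fresh tissue turned to 0.13 with limma-voom and 0.0099 without a filter, and to values from -0.11 to 0.072 with single libraries left out. CDSN there had 1.11 with limma-voom, 0.097 with the block and -1.77 to 2.19 with single libraries left out.

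With the replicate number as a block, TGM1 (0.055) and PKP1 (0.013) changed sign between vesicles and culture, and no call changed (member adjusted p = 0.967 to 0.997). The block gave 10438 calls in culture against fresh tissue, where the main count was 9786, and PPL and EVPL there had 0.87 ± 0.39 and 1.07 ± 0.47. CSTA lost its call there under the block (-1.17, edgeR adjusted p = 0.0994). Leaving out single libraries gave 9039 to 11090 calls, and in vesicles against fresh tissue 8833 to 11658. Divided by EPCAM, the genes lowest in vesicles 2 went from 9 to 1, a scaling chosen after seeing the data. Per-length levels could not be run without transcript lengths. Counting error limits IVL in fresh tissue, and the 5 libraries a group limit the rest.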
